A study of Drosophila melanogaster with 2 samples.

Results

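A total of 568 weak ChIP-seq peaks of the transcription factor Spalt major (Salm) had their summits in annotated 3′ untranslated regions (UTRs) of Drosophila melanogaster genes. They were chosen by their measured peak calls. Each was 1 of the 25837 peaks of the pooled list of 30000 peaks that overlapped no peak of the authors' list thresholded by IDR (irreproducible discovery rate, a filter on how well peak ranks repeat between replicates). Such peaks are called sub-threshold here. The summit also lay more than 500 bp from every annotated transcription start site (TSS), outside 5′ UTRs and coding sequence, and inside a 3′ UTR. The 568 made up 2.20% of the sub-threshold peaks (exact Clopper-Pearson 95% interval 2.02% to 2.38%, counting error only). They lay in the 3′ UTRs of 473 protein-coding genes, and 18 of them lay in UTRs of more than 1 gene.

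The peaks came from 1 group of 2 biological replicates. These were whole embryos aged 0 to 16 h of a transgenic line that stably expresses salm with GFP fused to its C-terminus, immunoprecipitated with an antibody against GFP and sonicated to 200 to 800 bp. Each value is therefore an average over the tissues and stages of the embryo, and the labels describe 1 line. With 1 group there was no comparison between conditions, so all values below are descriptions without a test.

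Salm is a zinc-finger transcription factor with roles in head and tail patterning, tracheal branching, and oenocyte and sensory organ formation, and its vertebrate relatives, the SALL proteins, are known to bind A/T-rich DNA. A 3′ UTR runs from the stop codon to the cleavage and polyadenylation site of an mRNA. In the mRNA it carries sites for RNA-binding proteins and microRNAs and the AATAAA signal that directs cleavage. ChIP reads the DNA that encodes it, which can also hold enhancers, start sites of unannotated transcripts and the ends of neighbouring genes.

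The sequences at the summits of the strongest members are shown first, because they are the DNA to which the highest values were assigned. All come from the RefSeq copy of Release 6 of the genome (dm6 coordinates), are 29 bases long, and are written 5′ to 3′ on the strand of the gene, with the summit base in capitals. They lie at chrX:10462152-10462180 (nocte), chr3R:23228819-23228847 (CG4467), chr3R:10140401-10140429 (TAF1B), chr3R:15927333-15927361 (CG34276), chr3R:21271382-21271410 (CG3308), chrX:14234581-14234609 (Fbxl4), chr3R:11208968-11208996 (SdhC) and chr3R:11211835-11211863 (Tctp).
nocte: acgatagcgacgacGtttaggccggaaac
CG4467: atctaacttttgaaAtccataaatgctaa
TAF1B: aaacgatctatgtaTtaaggggcagtgtt
CG34276: gatcaaaaagatgaCactatcaaaaaggt
CG3308: gtacttttgtacatAtttattcttgttgc
Fbxl4: gtgtacttttagatCccacatatttgtat
SdhC: taaatagacatcttGcggtccattgacag
Tctp: aaaagcacaatataTtttcctaaaattgt

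In the 50 bp to each side of these summits GC content ran from 24.8% (Tctp) to 47.5% (SdhC). The summit of CG3308 falls in an A/T run that holds a Pumilio-type element and, directly beside it, a polyadenylation signal on the other strand. That summit is 12 bp from the annotated end of Idi on the opposite strand, so the 2 genes overlap there. Some members that hold a searched word are shown next to let the words be seen in their surroundings, with the word or its reverse complement in capitals. GAGAG is the core bound by GAGA factor, GGTCACA that of the promoter factor M1BP, CAGGTA that of the early embryonic factor Zelda and TATCGAT that of DREF and BEAF-32. AATATT is an A/T-rich word, AATAAA the polyadenylation signal, and TGTANATA the element recognised in RNA by Pumilio.
nocte with GAGAG, chrX:10462106-10462134: tagacgatggtgGAGAGaataggagaaga
CG4467 with GAGAG, chr3R:23228837-23228865: aattttcagtcaGAGAGaatctaactttt
Rap1 with GAGAG, chr3L:1859761-1859789: ggcgcgctctcaGAGAGcgaaaaagctac
ifc with GGTCACA, chr2L:5988809-5988837: tgtaacgactcTGTGACCaattaaacttt
Atg3 with GGTCACA, chr3L:18750434-18750462: aaacgcaagttTGTGACCtaataattgaa
Atet with GGTCACA, chr2L:4344883-4344911: catataattctTGTGACCatgcagaaaag
Dci with CAGGTA, chr3L:852582-852610: agaacgccaccTACCTGtttgtgaatgaa
Femcoat with CAGGTA, chrX:4242047-4242075: tactcgctacttTACCTGaaccaagaacc
kirre with TATCGAT, chrX:3133419-3133447: attgcaatttaATCGATAatccccaagcc
Tctp with AATATT, chr3R:11211857-11211885: aaattgtaaagAATATTttattcaagtat
TAF1B with CACACA, chr3R:10140367-10140395: cttggccgcgacTGTGTGagcaaaggcac
CG42502 with CACACA, chr2L:18809071-18809099: tcaatataaattCACACAccatgattttt
CG3308 with TGTANATA, chr3R:21271386-21271414: agtcgtactttTGTACATAtttattcttg
CG8034 with TGTANATA, chrX:19281422-19281450: ttcggatattcTATATACAcaaattacta

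A word was counted on both strands within 50 bp of a summit, and a match is a description of letters, not a binding site. The eligible 3′ UTR sequence, meaning all 3′ UTR that meets the same distance and class rules (5.93 Mb), was cut into 58704 windows of the same length to give the background shares. AATATT reads the same on both strands, and none of the words contains another.

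The strongest member lay in the 3′ UTR of nocte, a gene required for resetting the circadian clock by temperature cycles. Its peak at chrX:10461971-10462360 had a pooled signal of 140, a signal of 82.1 in replicate 1 and 47.7 in replicate 2. The signal is the strength that the peak caller assigned to a peak, and its scale differs between lists, so replicates are set side by side by rank within their lists of 30000 peaks. The nocte peak ranked 3501 in the pooled list, 4272 in replicate 1 and 4457 in replicate 2. Its summit lay 2286 bp into a UTR of 2588 bp, and 288 bp from the end of Neb-cGP on the opposite strand.

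CG4467 followed with a signal of 132, at rank 5932 in replicate 1 and rank 2449 in replicate 2. TAF1B, which encodes a subunit of the RNA polymerase I initiation factor, had a signal of 131, at rank 3244 in replicate 1 and rank 7747 in replicate 2. CG34276 had a signal of 130 and ranked 4795 in replicate 1 and 3951 in replicate 2. The replicates placed these peaks in different orders: TAF1B stood above nocte in replicate 1 and below it in replicate 2.

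SdhC, a membrane subunit of succinate dehydrogenase in the respiratory chain, had a signal of 119, ranking 3820 in replicate 1 and 8656 in replicate 2. Pbgs, porphobilinogen synthase of heme synthesis, had a signal of 117, ranking 4233 in replicate 1 and 8045 in replicate 2. The phosphoserine phosphatase gene aay had a signal of 112, ranking 6835 in replicate 1 and 6874 in replicate 2. The UTRs of these genes were 340 bp (SdhC), 840 bp (Pbgs) and 419 bp (aay) long.

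Tctp, a conserved growth regulator, had a signal of 118, with the summit 49 bp from the end of its 999-bp UTR. Syx1A, the syntaxin of synaptic vesicle fusion, had a signal of 113 at position 0.486 of the UTR, on a scale where 0 is the stop codon and 1 the transcript end. The adhesion gene rst (roughest) had a signal of 109 inside the kirre gene of the opposite strand. Fnta, the farnesyltransferase alpha subunit, and Crag, an exchange factor for the GTPase Rab10, both had a signal of 105.

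The remaining genes of the 20 were CG3308 (130, shared with Idi), the F-box gene Fbxl4 (127), CG4004 (114), CG8034 (112), CG5877 (112), CG1888 (111), CG10222 (110) and the phosphate transporter gene NaPi-T (109), with signals in parentheses. Of the 20 peaks, 19 were inside a peak of both replicate lists, at ranks 3244 to 7899 in replicate 1 and 2449 to 10705 in replicate 2. The exception, NaPi-T, was listed in replicate 2 alone, at rank 5692. Among sub-threshold peaks outside the members with a pooled signal of 80 and over, 94.1% were in both lists. In 9 of the 20 the summit was in the third of the UTR nearest the transcript end, and in 1 of the 20 it was in the third nearest the stop codon.

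**Figure D1:**
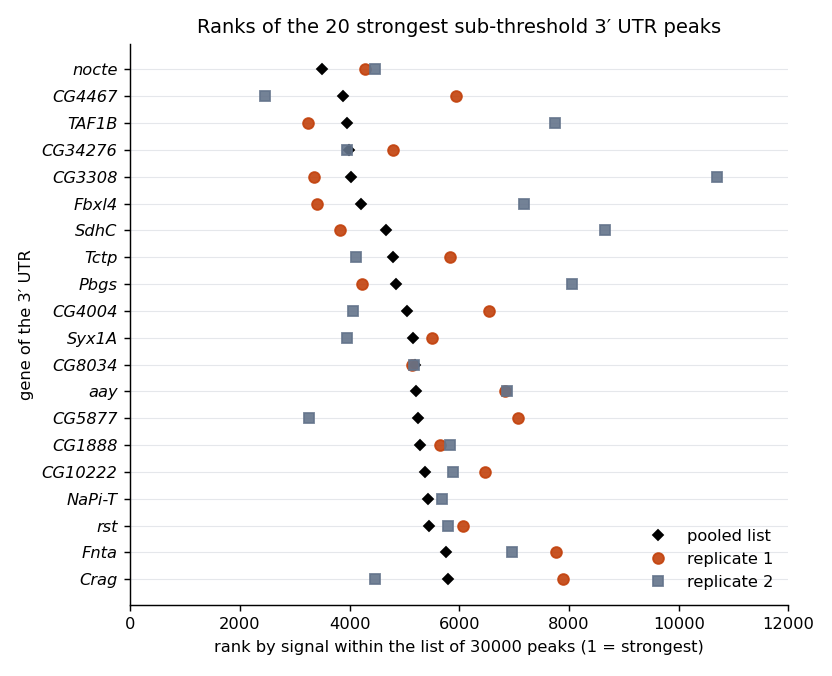
Rank by signal (x axis, 1 is the strongest of 30000) of the 20 strongest sub-threshold 3′ UTR peaks (y axis, gene of the UTR) in the pooled, replicate 1 and replicate 2 lists. Replicate 1 ranks run from 3244 to 7899 and replicate 2 ranks from 2449 to 10705, and NaPi-T has no replicate 1 point.

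The members were weaker than all other sub-threshold peaks combined, but not weaker than those in coding sequence. Their pooled signals ran from 31.3 to 140, with a median of 43.3 and quartiles of 36.3 and 57.3, against a median of 51.0 and quartiles of 39.2 and 73.7 in the other 25269 sub-threshold peaks. Sub-threshold peaks in coding sequence had a median of 38.7. Only 27 members exceeded a signal of 100, and 228 of them (40.1%) were under 40. The pooled list ends at 31.3, so the weakest members, down to rank 29990, sit at its lower limit. The lowest signal of the thresholded list and the highest of all sub-threshold peaks were both 141. The rule thus set the upper limit of the members' signals, which are given as a description.

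Each of the 568 peaks was 390 bp wide with the summit at its middle, so width and edges do not measure the extent of binding. How finely the deposited summits place binding was not tested. The 3 strongest members (nocte 140, CG4467 132, TAF1B 131) stand just under the weakest thresholded 3′ UTR peaks, in REG (145), Myd88 (149) and CG3764 (149). At the TSS limit of 500 bp, the nearest members were in rig (512 bp, signal 34.5), Trx2 (515 bp, 82.8) and Zdhhc8 (517 bp, 32.0). Just outside were CG43448 (494 bp, 38.7), CG32037 (486 bp, 40.5) and CG7668 (485 bp, 112), which were classed as promoter peaks.

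Fewer members than other weak peaks were listed in both replicates. Both replicate lists held a peak over the summit for 237 of 568 members (41.7%, interval 37.6% to 45.9%), against 53.8% of the other sub-threshold peaks and 53.5% of all sub-threshold peaks. In coding sequence the share was lower still, 25.7% (interval 22.3% to 29.4%). Replicate 1 held 412 members (72.5%) against 80.8% of the others, and replicate 2 held 344 (60.6%) against 68.4% of the others. A further 49 members (8.63%) were in neither replicate list, against 4.61% of the others. The pooled and replicate lists share reads, so these shares are not independent of the pooled call.

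Within bands of pooled signal the gap was small. Under a signal of 40, 28 of 228 members (12.3%, interval 8.32% to 17.3%) were in both lists, against 13.3% of the others. From 50 to 60, 40 of 72 members (55.6%, interval 43.4% to 67.3%) were in both, against 63.8% of the others. From 60 to 80, 60 of 69 members (87.0%, interval 76.7% to 93.9%) were in both, against 79.9% of the others. In each of the 5 bands the share of the others lay inside the members' counting interval. Across the 237 members in both lists, the signals of replicate 1 and replicate 2 had a Spearman rho of 0.471, against 0.441 in the other sub-threshold peaks. These are correlations over peaks of the same pair of libraries, not over samples.

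**Figure D2:**
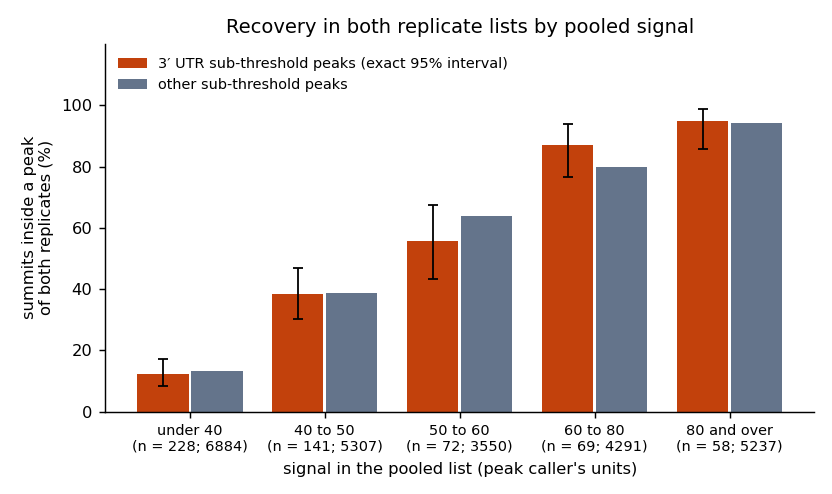
Percent of summits inside a peak of both replicate lists (y axis) by signal in the pooled list (x axis, peak caller's units), for sub-threshold 3′ UTR peaks with exact 95% intervals and for other sub-threshold peaks. Under a signal of 40 the shares are 12.3% of 3′ UTR peaks and 13.3% of others, and at 80 and over they are 94.8% of 3′ UTR peaks and 94.1% of others.

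Sub-threshold peaks were sparser in 3′ UTRs than in introns or between genes, and denser than in coding sequence. There were 95.8 members per Mb of eligible 3′ UTR, against 225 sub-threshold peaks per Mb of intron, 131 per Mb of intergenic sequence and 33.2 per Mb of coding sequence (610 peaks). Within 500 bp of a TSS the density was 412 per Mb. The replicate lists taken alone gave 579 such peaks in replicate 1 (2.23% of its sub-threshold peaks) and 621 in replicate 2 (2.40%).

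The annotation sets how firmly a summit belongs to a 3′ UTR. Only 249 of the 568 summits lay in the 3′ UTR of every transcript of the gene that has one. Inside another gene as well lay 65 members, a count without a background share here. A gene on the opposite strand spanned 48 members (8.45%, interval 6.30% to 11.0%), against 8.40% of eligible positions.

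Summits were placed more often toward the transcript end than eligible 3′ UTR sequence was. The median position was 0.563 in members and 0.504 in eligible positions. The third of the UTR nearest the stop codon held 159 members (28.0%, interval 24.3% to 31.9%) against 32.9% of eligible positions, and the third nearest the transcript end held 222 (39.1%, interval 35.0% to 43.2%) against 33.5%. The tenth nearest the stop codon held 5.99% of members and 9.80% of eligible positions.

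Median position differed between the top and bottom signal quartiles of the members. The 142 members of the top signal quartile had a median position of 0.626, and the 142 of the bottom quartile had 0.490. The 237 members in both replicate lists had a median position of 0.618, and the 49 in neither list had 0.568. Those 49 had a low median signal, 34.0, but a median position near the 0.563 of all members. By UTR length, the third nearest the transcript end held 44.0% of members where the longest UTR of the gene is 250 to 500 bp, against 31.4% of eligible positions, and 34.6% of members against 33.5% in the class of 1000 to 2000 bp.

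**Figure D3:**
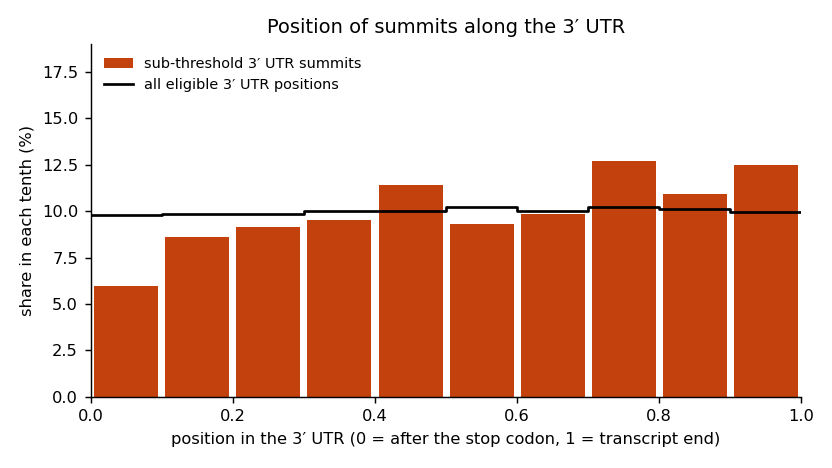
Share of sub-threshold 3′ UTR summits (bars) and of all eligible 3′ UTR positions (line) along the 3′ UTR (x axis, 0 at the stop codon and 1 at the transcript end; y axis, percent). The tenth nearest the stop codon holds 5.99% of summits against 9.80% of positions, and the tenth nearest the transcript end 12.5% against 9.94%.

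Gene ends on the opposite strand were less frequent near members than in eligible 3′ UTR sequence. Any annotated transcript end on that strand counted, on either side of the summit. An annotated gene end on the opposite strand lay within 500 bp of 86 members (15.1%, interval 12.3% to 18.4%), against 19.9% of eligible positions. Within 250 bp the share was 7.04% in members and 12.3% in eligible positions. The replicate lists taken alone gave shares within 500 bp nearer to that of eligible positions, 16.4% in replicate 1 and 17.2% in replicate 2. Of the 20 strongest members, 7 had such an end within 500 bp, nocte, SdhC, Tctp and Pbgs among them.

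Members lay nearer to start sites and to thresholded peaks than eligible 3′ UTR sequence did. The median distance to the nearest TSS was 1884 bp in members and 2390 bp in eligible positions, and 113 members (19.9%, interval 16.7% to 23.4%) were within 1000 bp of one, against 16.3%. The median distance to the nearest thresholded summit was 7911 bp in members and 13912 bp in eligible positions. Within 5000 bp there was a thresholded summit for 205 members (36.1%, interval 32.1% to 40.2%), against 21.1% of eligible positions. By the rule no member overlaps a thresholded peak, and none was within 500 bp of a thresholded summit, whereas eligible positions may be.

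**Figure D4:**
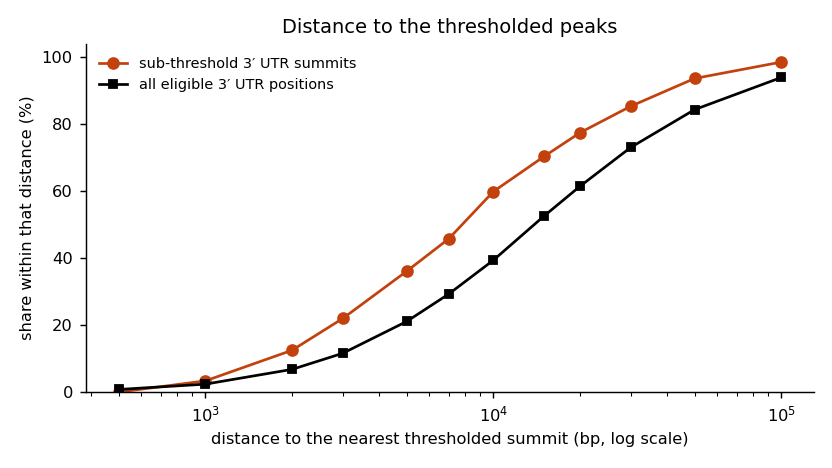
Cumulative share (y axis, percent) of sub-threshold 3′ UTR summits and of all eligible 3′ UTR positions within a given distance (x axis, bp, log scale) of the nearest thresholded summit. Within 5000 bp lie 36.1% of summits and 21.1% of positions, and within 10000 bp 59.9% of summits and 39.4% of positions.

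GC content at the summits stood between that of other weak peaks and that of 3′ UTR sequence. The median within 50 bp of the summit was 36.6% in members, against 40.6% in the other sub-threshold peaks and 34.7% in eligible 3′ UTR windows. Windows under 30% GC made up 23.4% of members (133), against 15.4% of other sub-threshold peaks and 29.6% of eligible windows. The replicate lists taken alone both gave a median of 36.6%.

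Most searched words occurred in members at about the share of 3′ UTR sequence. GAGAG was in 68 members (12.0%, interval 9.42% to 14.9%), against 13.1% of other sub-threshold peaks and 9.95% of eligible windows. CACACA was in 72 members (12.7%, interval 10.1% to 15.7%), against 10.5% of other peaks and 10.4% of eligible windows. The A/T word AATATT was in 56 members (9.86%, interval 7.53% to 12.6%), against 11.2% of other peaks and 11.4% of eligible windows. Each of these background shares lay inside the members' interval, although in the replicate 2 list taken alone the GAGAG interval, 10.2% to 15.6%, began just above the eligible share.

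Of the 2 words known from mRNA ends, TGTANATA was more frequent in members than in other weak peaks and AATAAA was not. AATAAA was in 141 members (24.8%, interval 21.3% to 28.6%), against 23.4% of other peaks and 27.4% of eligible windows, and both shares lay inside the interval. TGTANATA was in 56 members (9.86%, interval 7.53% to 12.6%), against 4.96% of other peaks and 8.79% of eligible windows, so the interval holds the share of eligible UTR and not that of the other peaks.

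Promoter words were rare. TATCGAT was in 2 members (0.352%, interval 0.0427% to 1.27%), in kirre as shown above and in galla-1, against 2.49% of other peaks and 1.42% of eligible windows. CAGGTA was in 5 members (0.880%, interval 0.286% to 2.04%), against 2.00% of other peaks and 1.41% of eligible windows. GGTCACA was in 5 members (0.880%, interval 0.286% to 2.04%), against 1.39% of other peaks and 0.496% of eligible windows. For TATCGAT both background shares lay above the members' interval, and for the other 2 words both lay inside it. These counts are small and changed with the list: the replicate 2 list taken alone held TATCGAT in 4 of 621 such peaks (0.644%, interval 0.176% to 1.64%), an interval that includes the eligible share. The replicate 1 list taken alone held GGTCACA in 2 of 579 (0.345%, interval 0.0419% to 1.24%), below the 1.39% of other peaks. No word was found in 249 of the 568 members, and 75 held at least 2 of the 8 words. No background share is given for these counts, so they are not compared.

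By chromosome arm, the X held the most members, 159 (28.0%), while it holds 23.5% of eligible 3′ UTR and 16.6% of other sub-threshold peaks. The density on the X was 114 per Mb, against 92.1 per Mb over arms 2L, 2R, 3L and 3R together. These arms ranged from 66.7 per Mb on 3L (71 members) to 117 per Mb on 2R (117 members), so the X lay within the range of the autosomal arms. Arm 4 held none in 0.0969 Mb of eligible UTR. In the replicate lists the X held 27.6% of such peaks in replicate 1 and 27.2% in replicate 2. The sex of the embryos was not recorded in the labels, and its part in the X share was not tested.

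Genes with a member had long UTRs and peaks at their starts. Of 11168 genes with eligible 3′ UTR, 473 (4.24%) held a member. The share was 0.544% among genes whose longest 3′ UTR is up to 250 bp, 3.25% from 250 to 500 bp, 6.20% from 500 to 1000 bp, 10.4% from 1000 to 2000 bp and 16.7% above 2000 bp. The median longest 3′ UTR was 1145 bp in genes with a member and 271 bp in genes without one.

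A thresholded summit lay within 500 bp of an own TSS in 110 of the 473 genes with a member (23.3%, interval 19.5% to 27.3%), against 14.3% of genes without one and 14.7% of all. For any pooled peak the shares were 80.1% with a member and 51.8% without. In each of the 5 length classes the share with any pooled peak at the start was higher in genes with a member, for example 86.7% against 64.4% above 2000 bp and 72.5% against 57.7% from 250 to 500 bp. For thresholded starts alone the shortest class went the other way, with 7.14% of its 28 genes with a member against 9.83% of those without. Genes with a member were also longer as a whole, with a median of 5972 bp against 2461 bp without one. The part of gene length and of the number of TSSs in these shares was not tested. In the 20 strongest members, 16 host genes had a pooled peak at the start and 6 a thresholded one.

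**Figure D5:**
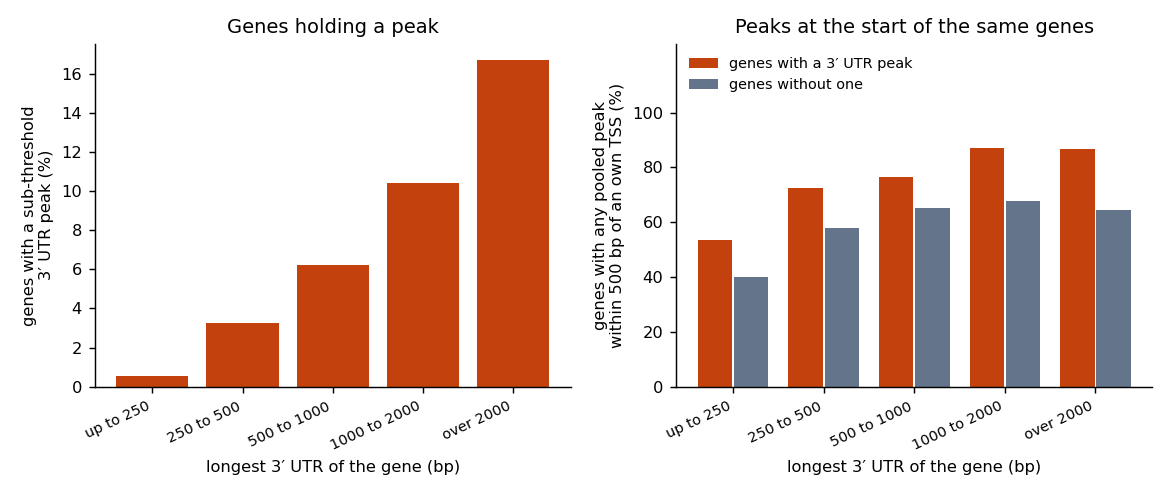
Left, percent of genes whose 3′ UTR holds a sub-threshold peak (y axis) by the longest 3′ UTR of the gene (x axis, bp), which runs from 0.544% to 16.7%. Right, percent of genes with any pooled peak within 500 bp of an own TSS for genes with and without a 3′ UTR peak, which is higher with one in all 5 length classes (86.7% with one and 64.4% without above 2000 bp).

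Most of these genes held 1 member (385), and 88 held 2 or more, together 196 of them. CG1888 and ps had 5 each. CG1888 peaks spread over 2920 bp of its 3353-bp UTR, with signals of 111, 66.7, 47.9, 41.4 and 32.1, and 4 were in both replicate lists. The peaks of ps (pasilla), a splicing regulator, spread over 6549 bp of a 7651-bp UTR, with signals of 82.9, 64.7, 41.6, 40.2 and 32.3, and 1 was in both lists. The pair thus differed in how often the replicates listed their peaks.

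Genes with 4 members were Ppa, aqz, corto, Lsd-2, mthl1 and Hk, of which the last 3 were named after their values were seen. Ppa, an F-box gene, had signals of 104, 78.6, 44.8 and 31.7. The strongest Ppa peak was in replicate 1 alone, at rank 5040, and the other 3 were in both lists. In aqz the strongest peak ranked 6146 in the pooled list and was in both replicate lists, and the other 3, with signals of 40.1, 36.3 and 35.1, were each in 1 list alone. In corto, a chromatin gene that interacts with Polycomb and trithorax proteins, they were 81.4, 53.3, 39.1 and 33.5, with 2 in both lists.

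The potassium channel subunit gene Hk stood apart in this set, with no member in both lists and signals of 47.2 and below. Neighbouring members of a gene were a median of 584 bp apart, and 89 members had a peak that overlapped another member's, so such neighbours are not separate observations. In RpS26, for instance, 2 members 266 bp apart fell inside the same replicate 2 peak at rank 12956.

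Nuclear receptor genes, which encode hormone receptors and related factors, were the list with the highest share of genes holding a member. Of the 16 receptor genes with eligible 3′ UTR, 7 held one (43.8%), against 4.24% of all genes. Their median longest UTR was 1815 bp. The share over all genes was 10.4% from 1000 to 2000 bp and 16.7% above 2000 bp. EcR, the ecdysone receptor, had a signal of 103, at rank 7132 in replicate 1 and rank 6095 in replicate 2. Hr3, an ecdysone-induced receptor, had a signal of 87.5, at rank 7904 in replicate 1 and rank 9257 in replicate 2. These were the only receptor genes of the list above a signal of 60.

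Hnf4, a lipid-sensing receptor, had a signal of 53.6, at rank 16008 in replicate 1 and absent from replicate 2. The others, named after their values were seen, were Eip78C (42.5), Hr4 (36.8), Eip75B (33.4) and usp (32.7), the partner of EcR. Of the 7, EcR, Hr3 and Hr4 had a member in both replicate lists. The EcR summit lay at position 0.697 of a 4715-bp UTR, and the Hr3 summit at position 0.804 of a 4013-bp UTR. The UTRs of Hr4 (5416 bp), Eip75B (2688 bp) and Eip78C (2080 bp) were also above 2000 bp.

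The salm gene itself held a member. The peak at chr2L:11434809-11435198 had a pooled signal of 62.3, ranked 9940 in replicate 1 and was absent from the replicate 2 list. Its summit lay at position 0.569 of a 1610-bp UTR. Whether the tagged copy of salm carries this UTR is not given in the sources used here. In the list of epidermal growth factor receptor (EGFR) pathway and oenocyte genes, salm, Hnf4 and sty, the signalling inhibitor Sprouty, were the 3 of 15 with a member, against 4.24% of all genes and 10.4% of genes of 1000 to 2000 bp, the class of the list's median longest UTR (1134 bp). The sty peak had a signal of 32.9.

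Muscle genes had members in 4 of 17 (23.5%), against 4.24% of all genes. The list's median longest UTR of 881 bp falls in the class of 500 to 1000 bp, where 6.20% of all genes held one. The strongest members of these 4 genes lay in UTRs of 1017 to 2451 bp, however. The shares over all genes were 10.4% from 1000 to 2000 bp and 16.7% above 2000 bp. Tm2, a tropomyosin gene, had a signal of 72.0 with the summit 27 bp after the stop codon, at rank 10952 in replicate 1 and 17004 in replicate 2. The titin-like gene sls had a signal of 49.7 and the tropomyosin gene Tm1 a signal of 42.6. Of the Hox genes and cofactors, 2 of 10 held a member, against 4.24% of all genes. The median longest UTR of this list was 2092 bp, and 16.7% of all genes above 2000 bp held one, so the count is near that of genes with long UTRs. The pair comprised the homeodomain cofactor gene hth (56.2, replicate 1 alone) and Antp (37.4, in both lists).

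Among tracheal genes, 2 of 12 (16.7%) held a member, against 4.24% of all genes with 6.20% of genes from 500 to 1000 bp and 10.4% from 1000 to 2000 bp, the classes on either side of the list's median longest UTR. These were the FGF ligand gene bnl (49.6, in both lists) and sty. RNA-binding regulators had 3 of 29 (10.3%): the neuronal gene elav (48.0, replicate 2 alone), Imp (42.5, in both lists) and pum (36.3, in both lists). This compares with 4.24% of all genes and 16.7% of genes above 2000 bp, and the median longest UTR of the list was 4604 bp. Maternal localized mRNAs had 1 of 9 (exu, 33.6), insulator and GAGA factor genes 1 of 14 (lola, 43.3) and heat shock genes 1 of 10 (Hsc70-3, 36.5). Beside these stand 4.24% of all genes, and 6.20%, 3.25% and 3.25% in the classes of the lists' median longest UTRs (855, 497 and 353 bp). Cytosolic ribosomal protein genes had 2 of 70 (2.86%), RpS26 (78.7) and RpS29 (36.3), against 4.24% of all genes and 0.544% of those up to 250 bp, where the list's median longest UTR of 234 bp falls. Among genes matched by symbol, Notch and Bearded genes (20), Dpp and wing genes (15) and microRNA pathway genes (9) had none. The share was 4.24% over all genes, and 3.25%, 10.4% and 6.20% in the classes of these lists' median longest UTRs (314, 1180 and 587 bp). The symbol Dl of the Notch list was unmatched and is not among its 20 genes. Its gene, which the annotation names Delta, held a member (40.6, replicate 2 alone), named after its value was seen. These lists are small, and a share of a list has no test here.

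Thresholded peaks were few in 3′ UTRs. There were 30, or 5.06 per Mb, with signals of 145 to 538, a median position of 0.673 and a median GC content of 32.2%. The 5 strongest were in stas (538), CG13334 (400), the calsyntenin gene Cals (374), CG5984 (367) and CG7872 (308). Of the 27 genes with a thresholded 3′ UTR peak, 3 also held a member, beside 4.24% of all genes: Hr4, corto and by, the fly tensin. The UTRs of these 3 were 5416, 6594 and 2584 bp long, and 16.7% of all genes above 2000 bp held a member. In by, the members had signals of 96.3 and 35.4 beside a thresholded peak of 254 in the same UTR.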

How the data were processed

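The authors deposited narrowPeak lists in dm6 coordinates: 1 per replicate, 1 called on both replicates pooled and 1 thresholded by IDR from these. Peaks were called with a control that was not analysed here, per the deposited descriptions. The deposited signal is the peak caller's strength value, and its scale differs between lists. The deposited −log10 q-value has a ceiling and was not used. Summit offsets are the authors' deposited values. Which aligner, peak caller and IDR threshold were used is not given in the sources used here. Each unthresholded list was 30000 peaks long, so list length is no measure of binding. Read totals were not given, so the depth is unknown. Replicates are biological replicates per the labels.

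Summits were classed with the Ensembl gene annotation in the order TSS within 500 bp, 5′ UTR, coding sequence, 3′ UTR, other, over 6 arms, without transposable elements. Position used the longest 3′ UTR of the gene that holds the summit. Eligible 3′ UTR was tiled in windows reaching 50 bp to each side. Intervals are exact Clopper-Pearson 95% intervals and reflect counting error alone. The 13 gene lists held 190 symbols, of which 4 were unmatched and 7 matched through synonyms, and a pattern for ribosomal protein genes. Named genes were those of the 20 strongest members, the 5 genes with the most members, up to 3 genes per list, the 5 strongest thresholded UTR peaks and members nearest the limits of the rule. Other genes were named after their values were seen. The members, lists and words were chosen with earlier results of these data known. Scripts were tested on made-up data and used Python 3.11.15, numpy 2.4.6, scipy 1.17.1 and matplotlib 3.10.9.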

Additional observations from a re-analysis of the deposited data

How the results depend on the processing

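The member count was 568, and 249 when the summit had to lie in the 3′ UTR of every transcript of the gene. The other alternatives gave 455 to 621. The share in both replicate lists was 12.7% when only the strongest 15000 peaks of each list counted, against 41.7% with the full lists. The median position was 0.558 to 0.559 in single replicate lists and 0.620 with the shortest UTR. Median GC content was 36.3% within 100 bp of the summit and 37.6% in members of both lists. The share near an opposite gene end was 7.04% within 250 bp and 22.7% within 1000 bp, against 12.3% and 29.5% of eligible positions. Genes with a member numbered 218 when both lists were required. For the words, all 8 shares were higher with windows of 100 bp to each side, which hold more letters, 5 of them beyond the counting interval (TATCGAT was 1.23%, CAGGTA 1.76% and GGTCACA 1.23%, inside it). The other 27 values, these 3 included, stayed inside the interval, which is wide for the rare words: in single lists TATCGAT ran from 0.345% to 0.644% and GGTCACA from 0.345% to 0.644%. No paired analysis was possible because there is 1 group. Limits are the fixed 390-bp peak width, lists that share reads, an annotation in which many 3′ ends overlap other features, and an unknown depth.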
